A study of Mus musculus with 4 samples.

Results

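The genes described here make bile acids from cholesterol, move bile acids and phospholipid out of the hepatocyte, or sense bile acids. They were taken as the probes annotated to a single gene among 10 named genes, and 9 of the 10 were measured, out of 9285 genes on the array: the hydroxylases Cyp7a1, Cyp8b1 and Cyp27a1, the transporters Abcb11, Abcb4, Abcc2 and Abcc3, and the nuclear receptors Nr1h4 and Nr0b2. No probe was annotated to Abcc4, which is not analysed here. Abcc2 and Cyp27a1 had 2 probes each, which were averaged, and the other 7 genes had 1 probe.

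Liver RNA of B6/FVB males, 7 to 8 weeks old and on a selenium-sufficient diet, was compared on 2-colour arrays with that of wild-type (Trsp) males of equal age and background; the biological replicates were littermates. DTrsp mice lacked Trsp, the gene for the selenocysteine tRNA, in the liver. The other mutants bore a mutant Trsp transgene: T34 changed to A34 in 2 copies (A34), A37 changed to G37 in 2 copies (G37L), or the G37 form in 16 copies (G37H). Whether these livers also kept their own Trsp, and which promoter drove the liver deletion, is not stated in the labels. The deposited values are the authors' averages (3 animals for G37H, 4 for each other line), so there is 1 value per probe and line. The spread between animals is therefore unknown, and every statement below compares averaged values without a replicate check.

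Each value is a log ratio, taken as the log2 of the Cy5 signal (mutant) over the Cy3 signal (wild type). The direction is likely, from the dye labels alone; with the ratio turned, every sign below would change. The labels give no log base, and were the values natural logs every fold would be larger than written. A gene was counted as higher or lower where its log2 ratio was at least 1 from 0, which is 2-fold. All genes together had a median of 0.16 in the DTrsp column, 0.07 in A34 and -0.11 in both G37 columns. A list of 50 abundant transcripts (ribosomal, respiratory chain and housekeeping genes) lay higher, with medians of 0.59, 0.16, 0.23 and 0.10, and calls were also counted with the columns centred on it. The only scatter the values hold is that between probes of the same gene. Among the 1791 genes with 2 probes, the probes lay a median of 0.43 apart on the log2 scale in DTrsp, and 0.29 (A34), 0.31 (G37L) and 0.30 (G37H) in the others. Trsp had no named probe, so the deletion could not be checked. Signal intensities were not used, so neither the level of a gene nor the presence of a cell type's defining markers can be stated, only ratios. In whole liver, fewer cells of a type and less RNA per cell cannot be told apart.

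Bile acids are made from cholesterol in hepatocytes by a classic route that begins with Cyp7a1 and an alternative route that begins with the mitochondrial Cyp27a1, and Cyp8b1 sets how much of the product is cholic acid. Abcb11 pumps bile salts across the canalicular membrane into bile, Abcb4 moves phosphatidylcholine and Abcc2 moves conjugated organic anions there, while Abcc3 exports conjugates at the basolateral side towards blood. The bile acid receptor Nr1h4 (FXR) raises the transcription of Nr0b2 (SHP), a receptor without a DNA-binding domain that represses Cyp7a1 and Cyp8b1, and of Abcb11.

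Promoter windows, from 250 bases before to 50 after the start of transcription, are shown for Cyp8b1, Abcc2 and Nr0b2, which were at least 2-fold apart from wild type in some line, and for Abcb11, which varied least across lines. They are RefSeq sequences of build GRCm38.p6, written 5′ to 3′ on the strand of the gene: Cyp8b1 at chr9:121916256-121916555 (minus strand), Abcc2 at chr19:43782058-43782357 (plus), Nr0b2 at chr4:133553126-133553425 (plus) and Abcb11 at chr2:69342567-69342866 (minus). Capitals mark TATAAA, the core TGANNNNGC of the antioxidant response element bound by NRF2, and, in Abcb11, a match with 1 mismatch to the inverted repeat AGGTCANTGACCT bound by FXR, each searched on both strands.
Cyp8b1: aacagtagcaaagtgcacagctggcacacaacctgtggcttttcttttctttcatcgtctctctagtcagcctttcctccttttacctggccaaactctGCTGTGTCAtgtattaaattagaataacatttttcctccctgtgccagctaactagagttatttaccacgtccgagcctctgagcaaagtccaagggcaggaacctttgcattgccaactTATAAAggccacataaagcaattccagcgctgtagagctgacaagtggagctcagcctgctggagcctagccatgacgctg
Abcc2: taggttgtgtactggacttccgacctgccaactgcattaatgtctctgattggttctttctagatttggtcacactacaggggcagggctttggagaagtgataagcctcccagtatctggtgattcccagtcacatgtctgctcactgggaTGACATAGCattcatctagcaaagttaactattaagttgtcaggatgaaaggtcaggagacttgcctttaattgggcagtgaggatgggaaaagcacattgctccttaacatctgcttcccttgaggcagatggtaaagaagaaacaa
Nr0b2: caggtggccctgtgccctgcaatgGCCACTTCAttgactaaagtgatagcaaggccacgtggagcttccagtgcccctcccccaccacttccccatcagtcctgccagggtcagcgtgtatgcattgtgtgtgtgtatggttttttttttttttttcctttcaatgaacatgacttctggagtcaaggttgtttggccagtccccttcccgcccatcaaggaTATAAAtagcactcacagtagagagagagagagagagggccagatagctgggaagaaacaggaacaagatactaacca
Abcb11: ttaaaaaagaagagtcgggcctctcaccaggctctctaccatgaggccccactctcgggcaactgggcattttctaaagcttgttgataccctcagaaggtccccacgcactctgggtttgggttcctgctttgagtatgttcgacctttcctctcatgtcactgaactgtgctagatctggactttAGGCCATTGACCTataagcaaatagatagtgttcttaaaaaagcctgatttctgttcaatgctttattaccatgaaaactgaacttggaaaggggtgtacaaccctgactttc

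TATAAA began 31 bases before the start in Cyp8b1 and 28 bases before it in Nr0b2, and 13.6% of all 32851 windows hold it. The core TGANNNNGC was present once in each of Cyp8b1, Abcc2 and Nr0b2, as in 41.3% of all windows, so its presence sets none of them apart. The window of Abcb11 held AGGCCATTGACCT 63 bases before the start, and 0.0822% of all windows hold this repeat with at most 1 mismatch. The repeat without mismatch, its direct form AGGTCANAGGTCA and the single extended site TCAAGGTCA were not found in any of the 8 genes with a window. That says only that these letters are absent there. The 8 are Cyp8b1, Cyp27a1, Abcc2, Abcc4, Abcb11, Abcb4, Nr0b2 and Nr1h4, and the motifs shared no bases in the windows shown.

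In DTrsp liver, a hydroxylase and a pair of conjugate exporters were higher than in wild type: Cyp8b1 at 1.52 (2.86-fold), Abcc3 at 1.39 (2.63-fold) and Abcc2 at 1.22 (2.32-fold), all log2 ratios. These were 3 of the 9 genes, and 0 of 9 were at least 2-fold lower, beside 3.27% of all genes higher and 1.62% lower. Of all genes, 0.797% lay above Cyp8b1, 0.991% above Abcc3 and 1.63% above Abcc2. The phospholipid flippase Abcb4 followed at 0.60, then Cyp7a1 at 0.42 and Nr1h4 at 0.32. Abcb11 at -0.05 and Cyp27a1 at -0.07 lay near 0, and Nr0b2 was the lowest of the 9 at -0.66, with 5.30% of all genes below it. Over the 9 the median was 0.42, which is 0.26 above that of all genes, but -0.17 with the column centred on abundant transcripts. Centred on abundant transcripts, 0 of the 9 stayed at least 2-fold higher, beside 0.625% of all genes. Cyp8b1 was then at 0.92, Abcc3 at 0.80 and Abcc2 at 0.62, Nr0b2 crossed the 2-fold line at -1.25 (as did 12.4% of all genes on the lower side), and Cyp7a1 and Nr1h4 changed sign to -0.17 and -0.27.

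The 2 probes of Abcc2 did not give the same size of difference in DTrsp. They read 1.85 and 0.58, 1.27 apart, and 7.93% of genes with 2 probes were as far apart in that column. Both lay above 0, but the call at 2-fold rests on the higher probe. Elsewhere the pair lay closer, at 0.64 and 0.32 in A34, -0.42 and -0.76 in G37L, and -0.25 and -0.19 in G37H.

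**Figure D1:**
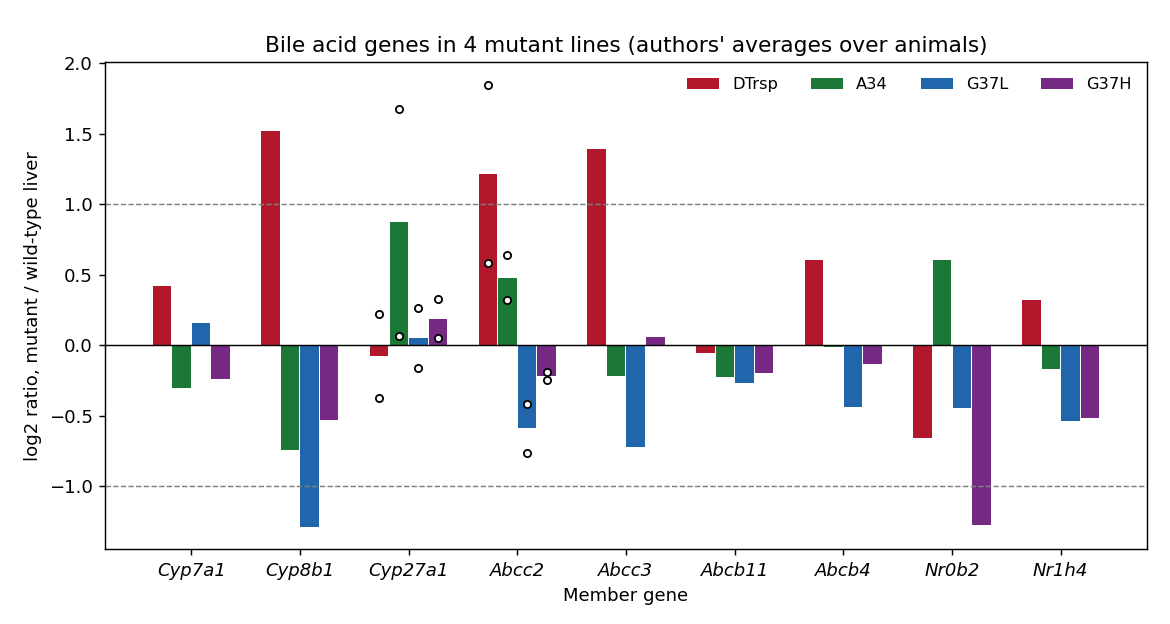
Log2 ratio of mutant over wild-type liver (vertical axis) for each of the 9 genes (horizontal axis), with 1 bar per line and dashed lines at 2-fold; white points are the single probes of Cyp27a1 and Abcc2, whose mean is the bar. Cyp8b1, Abcc2 and Abcc3 stand above 1 in DTrsp only, Cyp8b1 falls to -1.29 in G37L and Nr0b2 to -1.27 in G37H.

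In A34 liver none of the 9 genes was 2-fold apart, beside 1.40% of all genes higher and 0.452% lower. Cyp27a1, which begins the alternative route, had the highest ratio at 0.87, but this mean joined probes that read 1.68 and 0.07. A distance of 1.61 or more was found in 0.558% of genes with 2 probes, so the level of Cyp27a1 in A34 is not settled by these probes. Nr0b2 was at 0.61 and Abcc2 at 0.48. Cyp8b1 was lowest at -0.74, with 1.34% of all genes below it, and Cyp7a1 followed at -0.30. As deposited, Abcb11 at -0.22, Abcc3 at -0.22, Nr1h4 at -0.17 and Abcb4 at -0.01 were nearer to 0 than the median distance between 2 probes of a gene in this column. Relative to all genes, Abcb11 at -0.292 and Abcc3 at -0.291 were just past that distance of 0.287. So measured, 7 of 9 members were past it in A34, and 5, 6 and 4 were past their column's distance in DTrsp, G37L and G37H. Over the 9 the median was -0.17 (-0.24 relative to all genes) and the mean 0.03.

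In G37L liver Cyp8b1 was lower than in wild type, at -1.29 (2.44-fold), and only 1.58% of all genes lay below it. It was 1 of 9 genes at least 2-fold lower, and 0 were at least 2-fold higher, beside 3.96% and 2.51% of all genes. All 4 transporters lay below 0, with Abcc3 at -0.72, Abcc2 at -0.59, Abcb4 at -0.44 and Abcb11 at -0.27. The receptors Nr1h4 and Nr0b2 were at -0.53 and -0.44. Cyp7a1 at 0.16 and Cyp27a1 at 0.05 were the only members above 0, and both fell below 0, to -0.07 and -0.18, when the column was centred on abundant transcripts. In all, 7 of 9 were below 0, as were 60.6% of all genes, with a median of -0.44 over the 9 (-0.33 relative to all genes).

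In G37H liver, with 16 copies of the same transgene, Nr0b2 was the lowest of the 9 at -1.27 (2.41-fold), with 1.13% of all genes below it. This was 1 of 9 genes at least 2-fold lower and 0 of 9 higher, beside 3.10% and 2.78% of all genes. Cyp8b1 at -0.53 and Nr1h4 at -0.52 came next, followed by Cyp7a1 at -0.24, Abcc2 at -0.22, Abcb11 at -0.20 and Abcb4 at -0.13. Abcc3 at 0.06 and Cyp27a1 at 0.19 were above 0, and Abcc3 was at -0.04 when centred on abundant transcripts. Over the 9 the median was -0.22 (-0.10 relative to all genes).

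**Figure D2:**
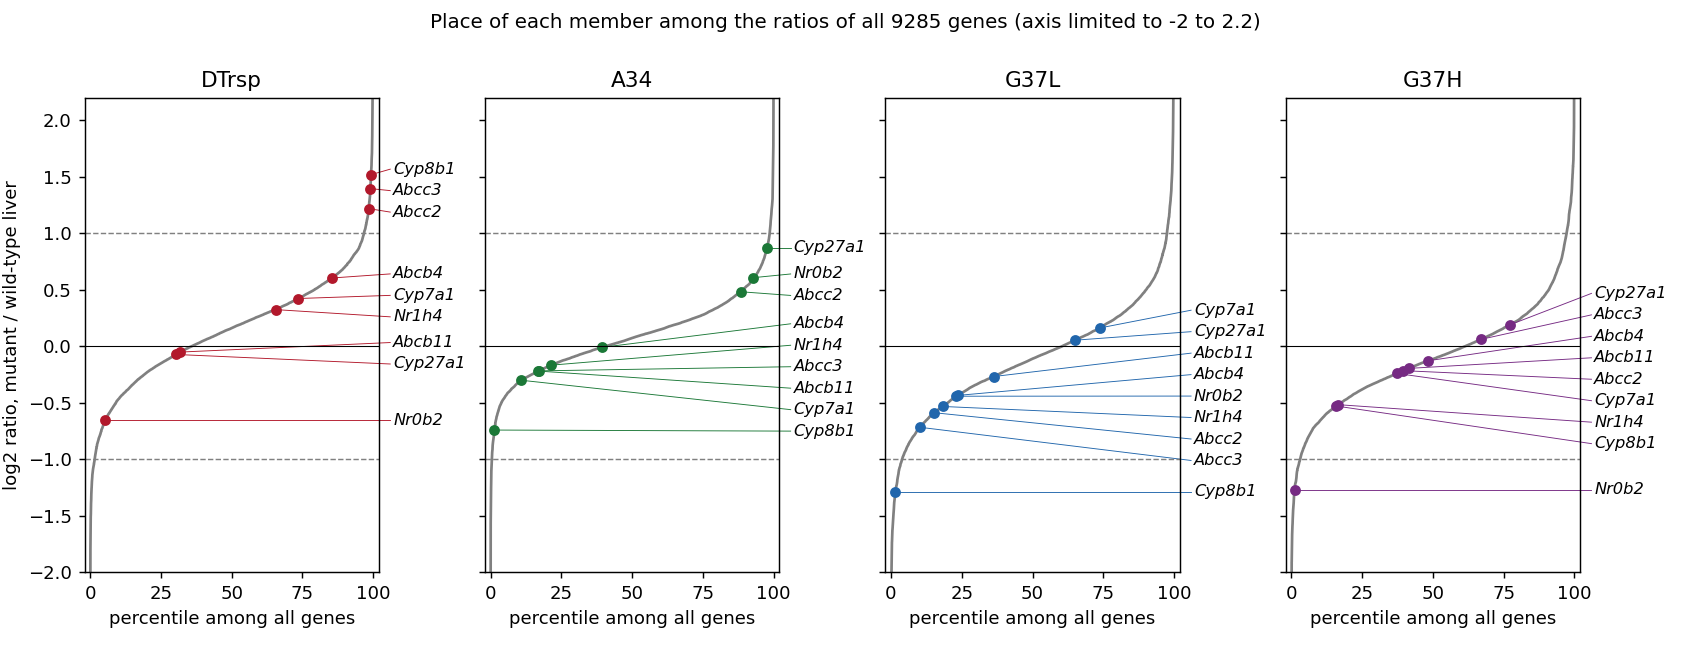
Log2 ratios of all 9285 genes in rising order (grey line, horizontal axis: percentile among all genes), with the 9 genes marked, 1 panel per line; dashed lines are 2-fold and the vertical axis is limited to -2 to 2.2. Cyp8b1, Abcc3 and Abcc2 sit at the upper end in DTrsp, Cyp8b1 at the lower end in A34 and G37L, and Nr0b2 at the lower end in G37H.

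Cyp8b1 varied most across lines. Its ratios ran from -1.29 in G37L to 1.52 in DTrsp, a range of 2.81, and 0.808% of all genes had a range as large. Abcc3 had a range of 2.11, Nr0b2 of 1.88 and Abcc2 of 1.81, against a median of 0.77 over all genes. At the other end, Abcb11 stayed between -0.27 and -0.05, a range of 0.22, and 97.3% of all genes had a range at least as large. Cyp7a1 also moved little, with a range of 0.72 that 54.8% of all genes reached.

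The sign of Nr0b2 was set beside those of the hydroxylases it is known to repress. Of all genes, 64.0% had the sign opposite to Nr0b2 in DTrsp and 40.9% in A34. In G37L the share was 39.4%, and in G37H 38.4%. Nr0b2 and Cyp7a1 had opposite signs in 3 of 4 lines, the exception being G37H, where both were below 0. Cyp7a1, with 1 probe, was at 0.42 (DTrsp), 0.16 (G37L) and -0.24 (G37H). Each of these was nearer to 0 than the median distance between 2 probes of a gene in its column (0.43, 0.31 and 0.30). In A34 Cyp7a1 was at -0.303, past that distance of 0.287. Centred on abundant transcripts, Cyp7a1 was below 0 in all 4 lines, so this count depends on the centring. Nr0b2 and Cyp8b1 had opposite signs in 2 of 4 lines, DTrsp (-0.66 and 1.52) and A34 (0.61 and -0.74), and both were below 0 in G37L (-0.44 and -1.29) and G37H (-1.27 and -0.53). It is not known whether the comparisons share wild-type animals.

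Differences between lines were taken gene by gene from the log2 ratios. With DTrsp subtracted, Cyp8b1 was at -2.26 for A34, -2.81 for G37L and -2.05 for G37H on the log2 scale. Abcc3 was at -1.61, -2.11 and -1.33, and Abcc2 at -0.74, -1.81 and -1.43, in the same order. Nr0b2 was higher in A34 than in DTrsp by 1.26. With columns centred on their medians, Cyp8b1 was at -1.77 for G37H. Counting genes at least 2-fold apart, A34 against DTrsp had 1 of 9 higher and 2 of 9 lower, beside 4.48% and 4.09% of all genes. Cyp27a1 was higher in A34 by 0.95, and by 1.03 with columns centred on their medians, which is past 2-fold. Its 2 probes lay 1.61 apart in A34. G37L against DTrsp had 0 higher and 4 lower, beside 3.96% and 10.1%. The fourth was Abcb4 at -1.04, or -0.77 with columns centred on their medians. G37H against DTrsp had 0 higher and 3 lower, beside 4.26% and 8.93%.

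Transgenic lines were also compared with each other, except G37H with A34. With 16 against 2 copies of the G37 transgene, 0 of 9 were 2-fold apart in either direction, beside 4.07% of all genes higher in G37H and 2.67% lower. For G37H minus G37L, Nr0b2 was at -0.83, and Abcc3 and Cyp8b1 were higher by 0.78 and 0.76. With 2 copies each, G37L against A34 had 0 of 9 at least 2-fold higher and 2 of 9 lower, beside 2.55% and 7.07%. These were Abcc2 at -1.07 and Nr0b2 at -1.05, which became -0.89 and -0.87 with columns centred on their medians and were then under 2-fold.

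Other genes of bile acid synthesis were described from a list of 23, of which 20 were measured and 17 are not among the 9. In DTrsp 2 of these 17 were at least 2-fold higher and 1 lower, beside 3.27% and 1.62% of all genes. They were the peroxisomal transporter Abcd3 at 1.37, the side chain oxidase Acox2 at 1.14 and the oxysterol hydroxylase Cyp7b1 at -1.08. The median of the 17 was 0.50, with 14 of 17 above 0, as were 64.0% of all genes. Centred on all genes, 2 of the 20 were at least 2-fold higher, beside 1.85% of all genes, and Acox2 was under 2-fold. Centred on abundant transcripts, 0 of the 20 were at least 2-fold higher, beside 0.625% of all genes, and their median was -0.10. In A34 Cyp7b1 was at 1.14, the only one of the 17 at least 2-fold apart, and 0 of the 20 were so when centred on abundant transcripts. Of all genes, 1.40% were higher and 0.452% lower in A34, or 0.829% and 0.926% so centred. In G37L the steroid reductase Akr1d1, which acts beside Cyp8b1 in the ring modification steps, was at -1.73, while Cyp2c70, which makes muricholic acids in mice, was at 1.52 and Cyp7b1 at 1.25. These were 2 of 17 at least 2-fold higher and 1 lower in G37L, beside 2.51% and 3.96% of all genes. In G37H Cyp2c70 was at 1.59 and Cyp7b1 at 1.26. There 2 of 17 were at least 2-fold higher and 0 lower, beside 2.78% and 3.10% of all genes. Cyp7b1, which follows Cyp27a1 in the alternative route, was thus below 0 in DTrsp and above 0 in all 3 transgenic lines.

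Canalicular transporters had ratios below 0 in the G37 lines, as were most genes. Of 9 listed, 7 were measured, the members Abcb11, Abcb4 and Abcc2 among them, and all 7 were below 0 in both G37L (median -0.59) and G37H (median -0.22), beside 60.6% and 61.6% of all genes. Relative to all genes these medians were -0.48 and -0.10. In G37L all 7 stayed below 0 under both centrings, and the sterol transporter subunit Abcg8, which secretes cholesterol into bile, was at -1.38. In G37H 6 of 7 were below 0 when centred on all genes. In DTrsp 6 of 7 were above 0, but 3 of 7 when centred on abundant transcripts. On the basolateral side only 3 of 7 listed exporters were measured. Abcc3 and the nucleotide exporter Abcc5 were at 1.39 and 1.18 in DTrsp, and none of the 3 was 2-fold apart in another line. With the column centred on abundant transcripts, 0 of the 3 were 2-fold apart in DTrsp too.

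Uptake carriers, regulators and detoxifying enzymes gave single genes past 2-fold. Of all genes as deposited, 3.27% were at least 2-fold higher and 1.62% lower in DTrsp, and 1.40% and 0.452% in A34. These shares were 2.51% and 3.96% in G37L, and 2.78% and 3.10% in G37H. In each line at most 1 of 7 uptake and 1 of 8 detoxifying genes was past 2-fold in either direction. Of 7 uptake genes, the organic anion carrier Slco1a1 was at -2.66 and the epoxide hydrolase Ephx1 at 1.69 in DTrsp, Slc22a7 was at 1.28 in A34, and Slco1a4 was at -1.04 in G37H. Of 21 measured regulators, the hepatocyte factor Onecut1 was at -1.32 in DTrsp, -1.07 in G37L and -1.09 in G37H, and Foxa3 was at 1.13 in G37L. Beside these and Nr0b2 in G37H, 0 of 21 were 2-fold apart in any line. That made 1 of 21 lower in DTrsp, 1 higher and 1 lower in G37L, and 2 lower in G37H. Centred on abundant transcripts, 4 of 21 were at least 2-fold lower in DTrsp, beside 12.4% of all genes. So centred, 3 of 21 were lower and 0 higher in G37L, beside 8.72% and 1.497% of all genes. Centred on all genes, 0 of 21 were lower and 2 higher in G37L, beside 2.72% and 3.24% of all genes. In G37H 1 of 21 was then lower, beside 1.96%. Of 8 detoxifying genes, Cyp2b10, a known target of the receptor CAR, was at 1.37 in G37L and 2.84 in G37H. Papss2, which makes the sulfate donor, was at -1.49 in G37L. The glucuronosyltransferases Ugt2b5 and Ugt1a1 were at 1.11 in DTrsp and 1.21 in A34. Of the genes named here, Onecut1 in G37L and G37H, Slco1a4 in G37H and Ugt2b5 in DTrsp were under 2-fold when centred on all genes. Ugt2b5 in DTrsp and Foxa3 in G37L were so when centred on abundant transcripts. Cyp2b10 was at -0.97 in A34. There 1 of 8 detoxifying genes was at least 2-fold lower under either centring, beside 0.614% (all genes) and 0.926% (abundant transcripts) of all genes. Members of the Slco1a, Cyp2b and Ugt families are similar in sequence, and probe sequences were not used here.

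**Figure D3:**
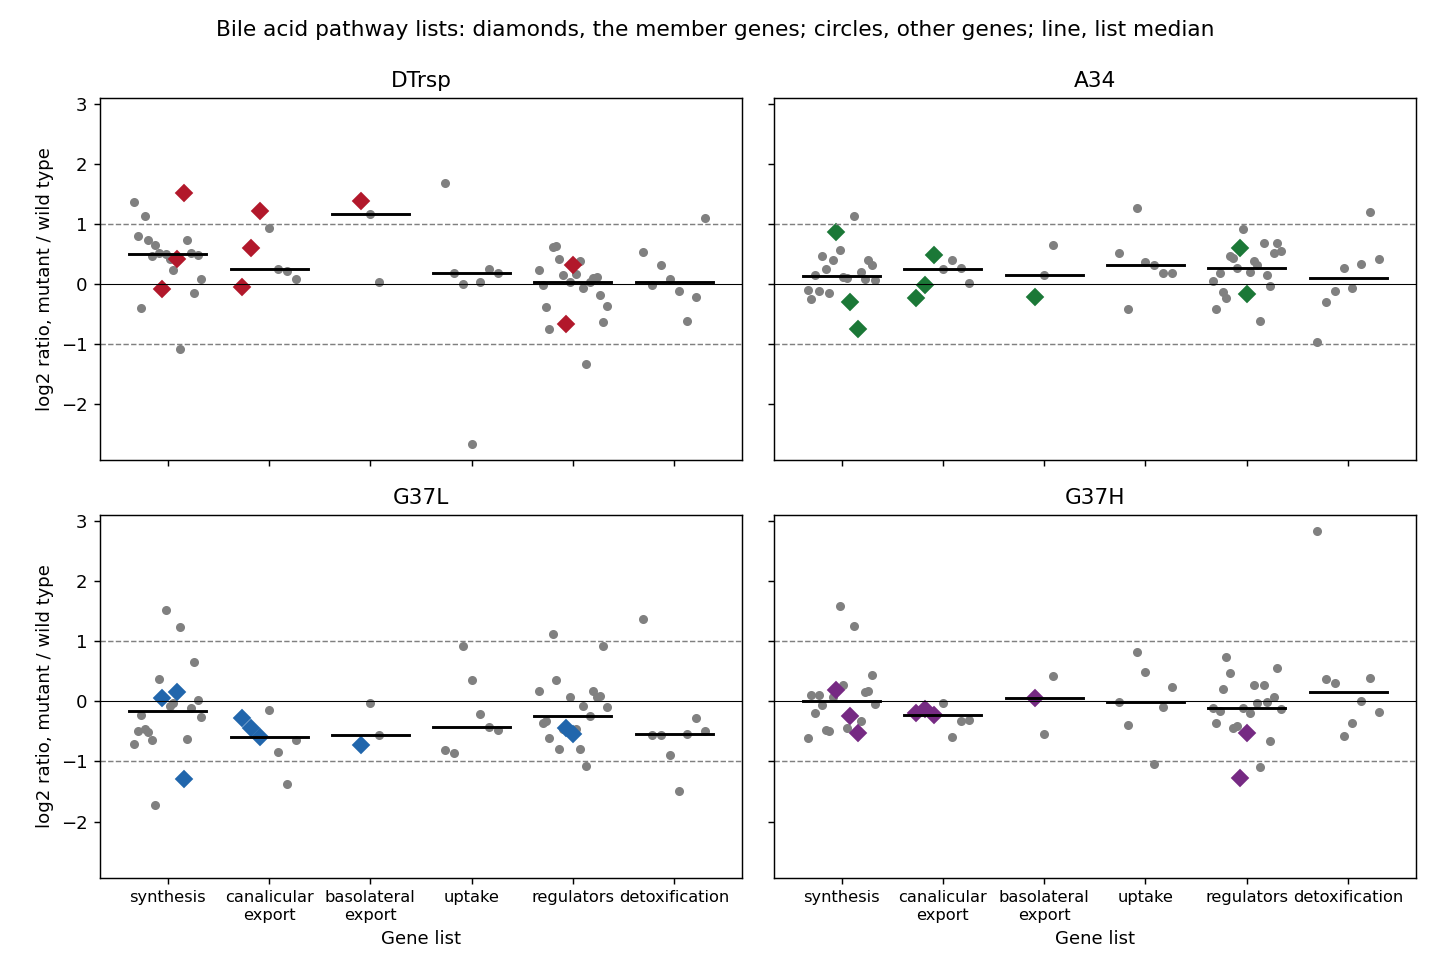
Log2 ratio (vertical axis) of each measured gene of 6 bile acid lists (horizontal axis), 1 panel per line; diamonds are the 9 genes, circles other genes, black lines list medians and dashed lines 2-fold. All 7 canalicular transporters lie below 0 in G37L and G37H, and the synthesis list has a median of 0.50 in DTrsp against -0.16 in G37L.

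Other gene lists moved in the same columns. In DTrsp 10 of 12 measured NRF2 target genes were at least 2-fold higher (median 1.40, with all 12 above 0), beside 3.27% of all genes. Abcc2 and Abcc3 were higher in the same column. The NRF2 count was 5 of 12 (median 0.81) when centred on abundant transcripts, beside 0.625% of all genes. In A34, G37L and G37H the NRF2 medians were 0.13, -0.15 and -0.22. Only Hmox1 was 2-fold apart there, at 1.27 in G37L and 1.09 in G37H. In G37L 14 of 16 acute phase genes were at least 2-fold higher (median 1.86), and 3 of 11 Kupffer cell and macrophage markers were too (median 0.72), beside the lower Cyp8b1 and transporters. These counts were 14 of 16 and 1 of 11 when centred on abundant transcripts. The acute phase genes were also all above 0 in A34 (3 of 16 at least 2-fold higher, median 0.55) and G37H (6 of 16, median 0.63), and 2 of 16 were at least 2-fold higher in DTrsp (median 0.30). The macrophage markers had medians of 0.36 (DTrsp), 0.48 (A34) and 0.48 (G37H). In A34 5 of 19 cholesterol synthesis genes were at least 2-fold lower (median -0.64), beside 0.452% of all genes. In G37L 3 of 19 were at least 2-fold higher (median 0.27), beside 2.51%, and 0 lower. In G37H 1 of 19 was lower (median -0.17), beside 3.10%, and in DTrsp none was 2-fold apart (median 0.11). The 12 hepatocyte markers had medians of 0.62 (DTrsp), 0.34 (A34), 0.47 (G37L) and 0.27 (G37H). Of 14 bile duct (cholangiocyte) markers only 3 were measured, with medians of 0.19, 0.44, -0.13 and -0.64 in the same order. The 10 measured markers of hepatocytes near the central vein had medians of 0.36, 0.05, -0.36 and -0.15, and the 8 of those near the portal vein 0.76, 0.27, 0.10 and 0.10. Centred on abundant transcripts, the hepatocyte medians were 0.03, 0.17, 0.24 and 0.17, with 6 of 12 above 0 in DTrsp. The bile duct medians were then -0.40, 0.28, -0.36 and -0.74, and the central vein medians -0.23, -0.11, -0.59 and -0.25. Those near the portal vein were 0.17, 0.10, -0.13 and 0.003. So centred, the macrophage markers were at -0.23 and the acute phase genes at -0.29 in DTrsp. The part of these genes and cells in the results on bile acid genes was not tested.

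The genes nearest in pattern to the 2 members of largest range were found by Euclidean distance over the 4 log2 ratios. For Cyp8b1 these were the biliverdin reductase Blvrb at 0.37, Fitm1 at 0.59 and Emc1 at 0.62. Blvrb had ratios of 1.68 (DTrsp), -0.53 (A34), -1.08 (G37L) and -0.69 (G37H). For Abcc3 they were Rpa1 at 0.32, the glutathione transferase Gstt1 at 0.33 and the glucuronosyltransferase Ugt2b34 at 0.37. Gstt1 had ratios of 1.52, 0.01, -0.52 and 0.02 in the same order.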

How the data were processed

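Total RNA of liver, 15 µg per labelling, was copied from an oligo-dT primer and coupled to Cy3 or Cy5, per the labels' protocols. The deposited values are the authors' log ratios, averaged over animals per the labels' descriptions, and were taken to be log2. Of the log base, normalization, background correction, spot filter and dye swaps, the labels used here say nothing. All 44 values behind the 9 genes (11 probes in 4 lines) have decimals that an average over the stated number of animals can give, which does not show that none rests on fewer.

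Gene identifiers in the platform annotation, which is old, were looked up in the RefSeq table of GRCm38.p6, which named 13047 of 15478 probes (9285 genes), some by the annotation's own symbol; the 110 with several genes stayed unnamed. Probes of a gene were averaged. The call was 2-fold, with no test, since there are no replicates. The number of arrays limits the precision. Counting was run on simulated data with planted differences far from the 2-fold line. That checks the code and not the calls made here. Python 3.11.15, pandas 2.3.3 and matplotlib 3.10.9 were used.

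Named were all members, up to 4 genes of each other list at least 2-fold apart and farthest from 0, and, for the 2 members of largest range, the 3 nearest genes. Members and lists were chosen with earlier results of these data known. Alternatives were folds of 1.5 and 3, centring on column medians or abundant transcripts, other summaries of probes, natural logs, scaling of column spread, means of members, and motif matches with 1 mismatch.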

Additional observations from a re-analysis of the deposited data

Results flagged for a closer look

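Cyp8b1 was at least 2-fold higher in DTrsp (1.52) and at least 2-fold lower in G37L (-1.29), a difference of 2.81 on the log2 scale between 2 lines under the same contrast with wild type. Each value is 1 average over animals, so the difference was not tested. Centred on abundant transcripts the values were 0.92 and -1.52.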

How the results depend on the processing

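Centring on column medians kept all 36 member values (9 genes in 4 lines) on their side of 0 and of 2-fold. Taking the median of probes could change none of them, since for genes with 1 or 2 probes it equals the mean. Counts of members follow with the share of all genes past the same line in parentheses. Those not listed were the same as in the main setting. At 1.5-fold they were 4 higher (15.6%) and 1 lower (6.96%) in DTrsp, and 2 higher (7.60%) and 1 lower (2.65%) in A34. In G37L 3 were lower (15.3%), and in G37H 1 was lower as before (13.1%). At 3-fold they were 0 higher in DTrsp (0.657%), 0 lower in G37L (0.635%) and 0 lower in G37H (0.388%). Centred on abundant transcripts, 0 were higher (0.625%) and 1 lower (12.4%) in DTrsp. So centred, 1 stayed lower in G37L (8.72%) and 1 in G37H (4.36%). With the probe farthest from 0, 1 was higher in A34 (2.98%). Read as natural logs, 1 was higher (4.76%) and 1 lower (1.63%) in A34 and 2 were lower in G37L (11.1%). Scaled to the spread of DTrsp, 1 was higher (4.82%) and 1 lower (1.66%) in A34. With the probe nearest to 0, Abcc2 in DTrsp fell to 0.58, under 2-fold, which left 2 higher there (3.05%). Cyp27a1 then changed sign in DTrsp (0.22) and G37L (-0.16). Of the member values, 0 that were past 2-fold changed sign under any of these settings. No paired analysis was possible because each line has 1 averaged column. With 1 mismatch, TGANNNNGC and TATAAA were each found in all 8 genes with a window, and in 99.96% and 69.8% of all windows.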
